A study of Mus musculus with 22 samples.

Results

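The genes described are those named for the proteins of the cytosolic ribosome. They were chosen by symbol, from probe sets that the platform annotation gives a single gene symbol: Rpl and Rps genes with their lettered and "like" paralogs, the lateral stalk genes and Rpsa, without the S6 kinase genes and symbols that contain -ps. This gave 48 genes of 18193, measured by 104 of the 34945 single-symbol probe sets, and where a gene had several, the brightest on average across the 22 arrays stood for it. By symbol, 26 of the 48 belong to the large and 22 to the small subunit. RefSeq annotates 47 as protein coding and 1, Rps4l, as a transcribed pseudogene. A further 110 probe sets list a symbol of this kind together with other symbols, and 28 ribosomal protein symbols occur only there and so are not among the members.

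The cells were Rex1GFPd2 mouse embryonic stem (ES) cells, a line that carries a GFP reporter at the Rex1 (Zfp42) locus, grown without serum in Neurobasal/DMEMF12 with N2 and B27. All received siRNA by reverse transfection and were harvested 72 h later, and total RNA was hybridised to Affymetrix 3′ arrays. The first arm, 2i control, stayed in 2i, the medium with the MEK inhibitor PD0325901 and the GSK3 inhibitor CHIR99021, and received siControl#1 (4 arrays) or siControl#2 (3 arrays). The second, PD control, received the same control siRNAs (4 and 3 arrays) and was moved after 24 h to medium with PD0325901 alone, and the third, PD siYAP/TAZ, received siYAP/TAZ#1 or siYAP/TAZ#2 (4 arrays each) with the same change of medium. MEK inhibition is thus common to all 22 cultures. The medium change without CHIR99021 came with both PD arms, there was no YAP/TAZ knockdown in 2i, and the knockdown is transient and acts on Yap1 and Wwtr1 together. In whole cultures, fewer cells of a type and less RNA per cell cannot be told apart.

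The ribosome is made of a small subunit, which reads the mRNA, and a large subunit, which joins amino acids. Each is built from ribosomal RNA, most of it made by RNA polymerase I, and from a fixed set of proteins. Most ribosomal protein mRNAs start with a 5′ terminal oligopyrimidine (TOP) tract, a C followed by a run of C and T, through which mTORC1 and LARP1 control their translation. A few ribosomal proteins have paralogs with restricted expression, among them Rpl39l, known from male germ cells and ES cells, and Rpl3l, known from striated muscle. YAP and TAZ are transcriptional coactivators that work through TEAD factors, and CHIR99021 stabilises β-catenin, which works through TCF/LEF factors.

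The stretches around the start of 9 genes are shown because they hold, or lack, the tract that defines TOP mRNAs: first 6 genes whose level differed between arms, then 3 that were called in no comparison, all chosen after their values were seen. Each runs from 40 bases before to 20 bases after the start annotated in RefSeq (GRCm38.p6), and capitals mark each unbroken run of a C and at least 5 further bases that are C or T, where the first C of the run lies within 20 bases of that start.
Rps25 (chr9:44407674-44407733, plus strand): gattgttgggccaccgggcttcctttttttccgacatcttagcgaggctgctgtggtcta
Rpl12 (chr2:32961672-32961731, plus strand): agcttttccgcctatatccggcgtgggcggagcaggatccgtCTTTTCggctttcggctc
Rpl22l1 (chr3:28805468-28805527, plus strand): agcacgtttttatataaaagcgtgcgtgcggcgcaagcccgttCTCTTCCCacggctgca
Rpl39l (chr16:10170188-10170247, plus strand): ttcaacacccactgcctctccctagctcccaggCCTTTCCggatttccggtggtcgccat
Rpl37 (chr15:5116573-5116632, plus strand): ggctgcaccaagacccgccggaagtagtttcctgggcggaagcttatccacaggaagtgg
Rpl7l1 (chr17:46782637-46782696, minus strand): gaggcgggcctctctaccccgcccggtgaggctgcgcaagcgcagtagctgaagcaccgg
Rplp2 (chr7:141447611-141447670, plus strand): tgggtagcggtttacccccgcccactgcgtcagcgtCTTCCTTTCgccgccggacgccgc
Rpl7a (chr2:26910767-26910826, plus strand): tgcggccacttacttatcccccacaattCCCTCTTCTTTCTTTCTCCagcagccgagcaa
Rpl4 (chr9:64173347-64173406, plus strand): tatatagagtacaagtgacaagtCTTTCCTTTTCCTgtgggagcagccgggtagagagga
The longest tract was 6 bases in Rpl12, 8 in Rpl22l1, 7 in Rpl39l, 9 in Rplp2, 19 in Rpl7a and 13 in Rpl4. Rps25, Rpl37 and Rpl7l1 had none by this rule. These 9 genes do not stand for all members. Rplp0, Rpsa and Rps4x, also called in no comparison, had no tract by the rule. Rpl11 and Rpl14, called higher with YAP/TAZ siRNA than in PD control, had tracts of 16 and 14 bases. In Rps25 a long run of pyrimidines begins just upstream of the limit and reaches into it. The gene has a tract if later C bases of a run may count as its beginning.

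RefSeq start windows were at hand for 42 of the 48 genes, 50 windows in all. Such a tract lay within 20 bases of the start in 29 of the 50 windows (58%), against 31.4% of all 32851 windows. Counted from any C of a run, a rule added after the data were seen, the shares were 60% and 32.5%, and Rps25 was the gene added. In the full window of 300 bases, searched on both strands, the TEAD motif CATTCC was found in 5 member windows (10%, against 14.7% of all windows), the TCF/LEF motif CTTTGA in 2 (4%, against 16%) and the E-box CACGTG, a motif of Myc, in 5 (10%, against 7.15%). The tract was searched on the gene's own strand, and CATTCC can overlap the end of such a tract. The tract was thus found in a larger share of member windows than of all windows and the TEAD and TCF/LEF letters in a smaller one. Several windows of 1 gene are not independent, and a match is not a site.

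The pluripotency markers had a summed level of 16.18 to 16.45 on the log2 scale on every array, and Pou5f1 lay between 12.51 and 13.13, so the defining genes of the labelled cell type were present in the 3 arms. Yap1 was at 11.00 to 11.07 in PD control and 9.67 to 9.91 with YAP/TAZ siRNA, and Wwtr1 (TAZ) at 10.25 to 10.34 and 9.18 to 9.41, with no overlap for either gene (limma, log2 differences of -1.27 and -1.04, adjusted p = 2.61e-18 and 5.32e-17). Summed markers of other cell types stood out in PD control: trophoblast markers at 14.58 to 14.64 (10.16 to 10.24 in 2i, 10.88 to 11.09 with YAP/TAZ siRNA), primitive endoderm markers at 12.50 to 12.60 (10.47 to 10.54 and 10.62 to 10.72) and fibroblast markers at 10.95 to 11.07 (8.23 to 8.42 and 8.54 to 8.67). Of these lists, 8 of 12, 9 of 14 and 9 of 10 genes were lower in 2i than in PD control, and 1, 2 and 0 higher. With YAP/TAZ siRNA 7, 8 and 8 were lower than in PD control and 2, 2 and 0 higher. The brightest genes carry such a sum. The median differences from PD control were -0.92, -0.57 and -1.28 in 2i and -0.55, -0.38 and -1.285 with YAP/TAZ siRNA. The RMA scale has no 0, so none of these markers is at 0. The 3′ minus 5′ difference of the Actb control probe sets was also lowest in PD control, 0.72 against 0.97 in 2i (exact permutation test over arrays, two-sided, p adjusted over 15 tests = 0.00109) and 0.98 with YAP/TAZ siRNA (adjusted p = 0.000932). The part of these measures in the results below was not tested beyond the fit that takes the Actb value as a covariate. That value was 0.66 to 0.75 in PD control, 0.87 to 1.19 in 2i and 0.88 to 1.07 with YAP/TAZ siRNA. Without overlap with PD control, the fit cannot well separate the measure from the arm. With it, 42.9% of all genes were called between 2i and PD control and 45.1% for YAP/TAZ siRNA, against 58% and 61.8% without it. The Gapdh 3′ minus 5′ difference was -0.01 in 2i, -0.07 in PD control and -0.02 with YAP/TAZ siRNA. By the same test its adjusted p was 0.00109 and 0.00259 against PD control. The poly-A spike controls read 8.96 in 2i, 8.52 in PD control and 8.43 with YAP/TAZ siRNA. By that test 2i differed from PD control (adjusted p = 0.00109) and from YAP/TAZ siRNA (adjusted p = 0.000932). The 2 PD arms gave an adjusted p of 0.307. The control probe sets for 18S ribosomal RNA read 13.44 in 2i, 13.43 in PD control and 13.62 with YAP/TAZ siRNA, the last above PD control by 0.19 (exact permutation test, two-sided, adjusted p = 0.000932).

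Ribosomal protein mRNAs were among the brightest signals on these arrays. A mean level of 13 or more was reached by 175 genes, of which 36 were members, and of the 48 genes at 14 or more 32 were members. Brightest was Rplp2, an acidic protein of the lateral stalk that recruits elongation factors, and dimmest Rps16, whose only single-symbol probe set read 2.93 to 3.27 on all arrays and so gives no usable level for that small-subunit gene. Replicates lay close together: the median SD within an arm was 0.0285 for the 36 bright members, 0.0598 for the 12 others and 0.0985 for all genes. On 14 of the 48 genes the chosen probe set has a name ending in _x_at or _s_at, which marks probes shared with other transcripts, and ribosomal protein genes have many near-identical pseudogene copies, so a reading can include such copies. The values were normalised so that all arrays have alike distributions, and a change in all mRNA or in the total per cell cannot be seen in them.

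The first question was what removing CHIR99021 from the medium did to these genes. Relative to PD control, 2i control had more mRNA of Rps25 (1.62-fold), Rpl39l (1.51-fold), Rpl12 (1.40-fold), Rpl22l1 (1.31-fold), Rpl37 (1.26-fold) and Rpl7l1 (1.23-fold), while Rplp0, Rplp2, Rps4x and Rps2 differed by less than 0.04 on the log2 scale. By limma, with p-values adjusted over all genes, 18 of 48 members were called higher and 2 lower, against 31.3% and 26.7% of all genes; 41.7% of members were called in either direction, against 58% of all genes. The median difference was 0.046 for members and 0.044 for all genes. No member differed by 1 log2 unit, a size that 1057 genes reached.

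The second question was what loss of YAP and TAZ did in medium without CHIR99021. Against PD control, YAP/TAZ siRNA came with higher readings of Rpl39l (1.42-fold), Rpl37 (1.34-fold), Rpl7l1 (1.28-fold) and Rps4l (1.13-fold) and with lower ones of Rpl12 (0.874 of the control level). Called were 14 members higher and 2 lower (Rpl12 and Rps2), against 35.5% and 26.3% of all genes, and 33.3% in either direction against 61.8%. The median difference was 0.022, against 0.061 for all genes. This comparison and the one before it share the PD control arrays, so their values are not independent of each other.

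The third comparison set YAP/TAZ siRNA in PD against 2i control. Rpl12 stood at 0.624, Rps25 at 0.662 and Rpl22l1 at 0.768 of its level in 2i, and Rps4l was 1.12-fold higher. Called were 5 members higher and 11 lower, against 25.5% and 22.8% of all genes, and 33.3% in either direction against 48.3%; the median was -0.019 for members and 0.015 for all genes. Comparing the 2 siRNAs of a kind within an arm, limma called 0 members and 0% of all genes in each of the 3 arms, with 3, 1 and 0 members at an unadjusted p below 0.05 in 2i control, PD control and PD siYAP/TAZ.

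**Figure D1:**
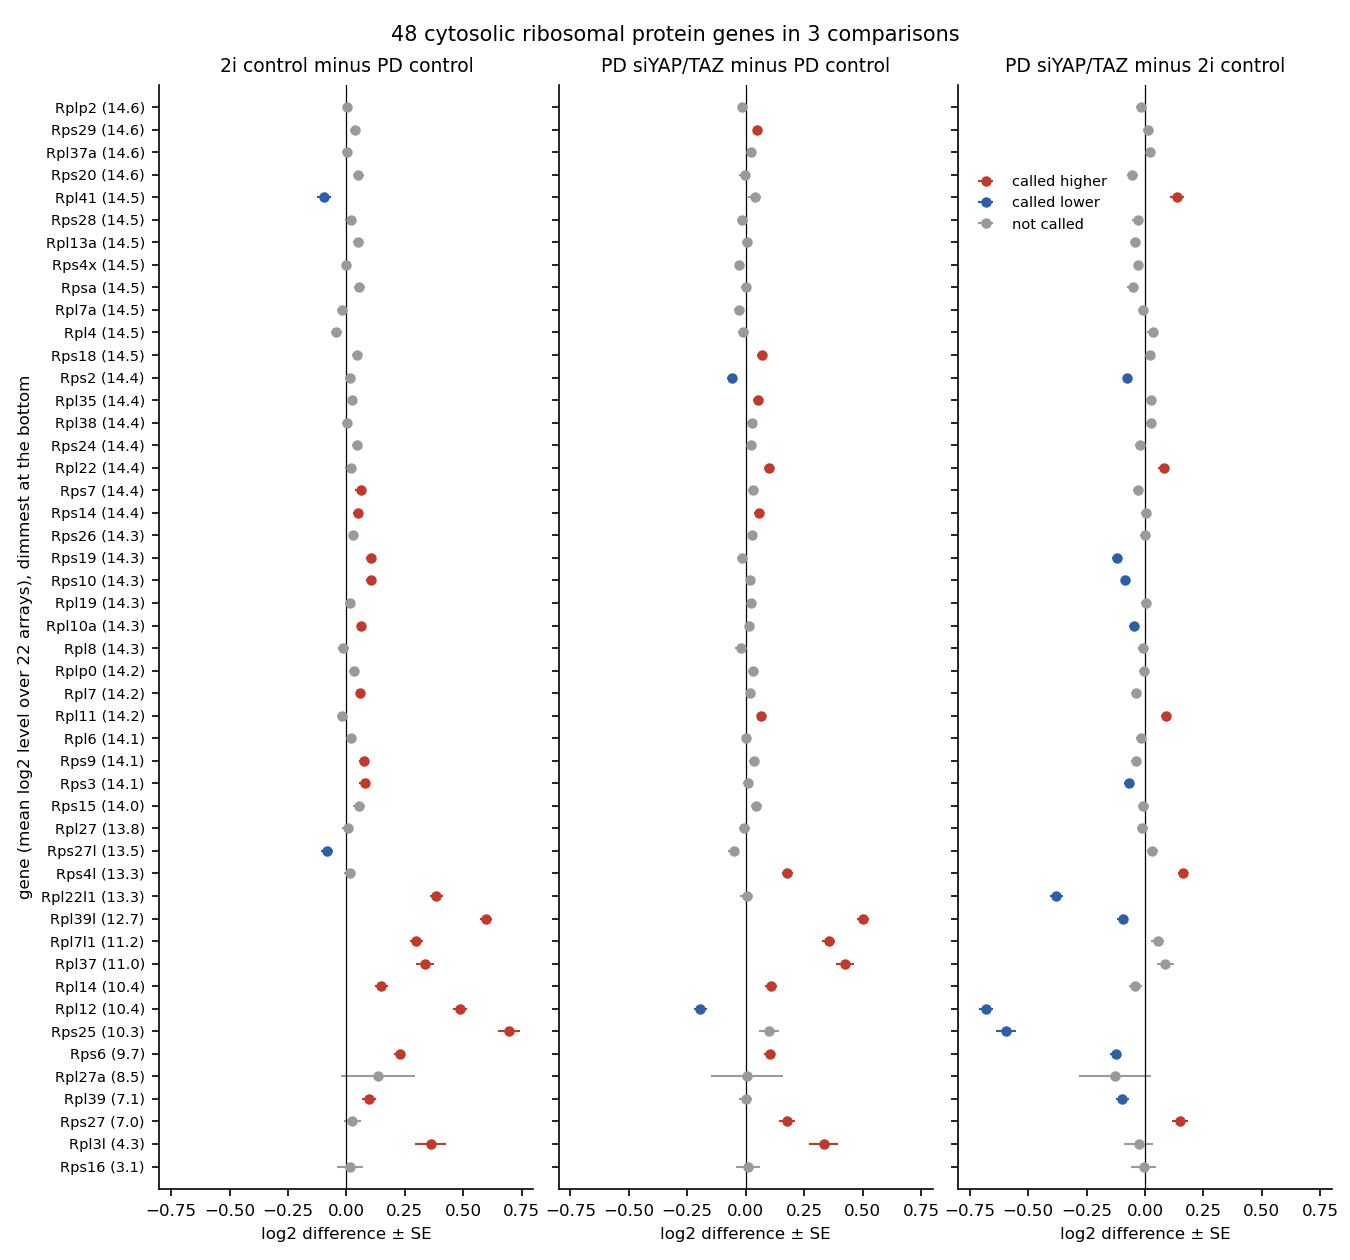
Log2 difference with its standard error for each of the 48 genes in the 3 comparisons, ordered by mean level over 22 arrays (in brackets). Red and blue points were called by limma at an adjusted p of 0.05. Most genes at level 13 or more lie within 0.1 of 0, where the direction depends on how arrays are scaled, and the wide differences are those of Rps25, Rpl12, Rpl22l1, Rpl39l, Rpl37 and Rpl7l1.

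The direction of the small differences depended on the scaling of the arrays. The median of all gene values was 6.59 in 2i, 6.71 in PD control and 6.57 with YAP/TAZ siRNA, and centring each array on it moved the median difference of all genes from 0.04 to 0.16 between 2i and PD control and from 0.06 to 0.20 for YAP/TAZ siRNA. With that scaling 45 members were called higher and 0 lower in 2i, where 76.5% of all genes were called, and 46 higher and 0 lower with YAP/TAZ siRNA, where 82.8% were. After cyclic loess between arrays the counts were 15 higher and 3 lower in 2i (56.4% of all genes called) and 6 higher and 11 lower with YAP/TAZ siRNA (58.5%), so that the median of the members turned to -0.025. Against 2i, YAP/TAZ siRNA gave 7 higher and 10 lower after centring (49.1% of all genes called) and 4 higher and 21 lower after cyclic loess (48.5%). Relative to the median of all genes, the members' median lay at 0.002 with the deposited scaling, 0.002 with centring and 0.019 with loess in the first comparison, and at -0.039, -0.039 and -0.037 in the second.

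Some differences kept their direction and their call in every fit made of the gene table (28 to 30 fits per gene, among them other scalings, the Actb covariate, each control or YAP/TAZ siRNA alone and each array left out). Between 2i and PD control these were 7 of the 20 called members, all higher in 2i: Rps25, Rps6, Rpl12, Rpl37, Rpl22l1, Rpl39l and Rpl7l1. For YAP/TAZ siRNA in PD they were 4 of 16, all higher: Rpl37, Rpl39l, Rpl7l1 and Rps4l. Against 2i they were 5 of 16, with Rpl12, Rpl22l1, Rps19 and Rps25 lower and Rps4l higher. How many of all called genes kept their call in every fit was not counted, so these shares have no background. In each comparison 14 or 15 of the fits leave out 1 array and share most of their data. The only single-symbol probe set of Rpl37 is an _x_at one, so the fit without _x_at and _s_at probe sets could not include this gene.

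Among the small-subunit genes, on the chosen probe sets, Rps25 had the largest difference in both comparisons with 2i. Its protein, in the head of the subunit, is needed by several viral internal ribosome entry sites. Its lowest, median and highest values were 10.64, 10.68 and 10.85 in 2i control, 9.94, 10.02 and 10.11 in PD control and 9.95, 10.12 and 10.26 with YAP/TAZ siRNA. All 2i arrays lay above every array of both PD arms, which overlapped each other. The difference was 0.70 ± 0.05 (log2 ± SE) between 2i and PD control (adjusted p = 2.96e-11) and -0.60 ± 0.04 between YAP/TAZ siRNA and 2i (adjusted p = 3.78e-10). YAP/TAZ siRNA and PD control differed by 0.10 ± 0.04 (adjusted p = 0.0534), just outside the threshold. Rps25 thus stood low in both arms without CHIR99021.

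Rps6, the subunit protein phosphorylated by the S6 kinases downstream of mTORC1, read 9.65, 9.78 and 9.85 in 2i, 9.47, 9.55 and 9.62 in PD control and 9.62, 9.65 and 9.68 with YAP/TAZ siRNA. The 2i arrays lay above all PD control arrays, and the YAP/TAZ siRNA arrays lay between, sharing values with both. It was higher in 2i than in PD control by 0.23 ± 0.02 (adjusted p = 8.38e-08) and higher with YAP/TAZ siRNA than in PD control by 0.10 ± 0.02 (adjusted p = 0.000859), the second call being lost after loess (0.04), with the Actb covariate (0.08) and with siRNA 2 alone (0.09). Rps19, the gene most often mutated in Diamond-Blackfan anaemia, chosen here after its values were seen, read 14.36 to 14.45 in 2i, 14.28 to 14.33 in PD control and 14.27 to 14.31 with YAP/TAZ siRNA. All 2i arrays were above the others, and the difference between YAP/TAZ siRNA and 2i was -0.12 ± 0.02 (adjusted p = 4.98e-05).

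Rps27, a zinc-finger protein of the small subunit read by a dim probe set, stood at 6.89, 6.95 and 7.01 in 2i, 6.84, 6.93 and 6.99 in PD control and 6.97, 7.10 and 7.21 with YAP/TAZ siRNA, where it was higher than in PD control by 0.18 ± 0.03 (adjusted p = 0.000121). The arms overlapped, and the call was lost with siRNA 2 alone (0.12). Rps2, which lines the entry of the mRNA channel, was lower with YAP/TAZ siRNA than in PD control by 0.06 ± 0.02 (adjusted p = 0.0128), a difference that became 0.08 in the other direction with centred arrays and lost its call with the Actb covariate (-0.05) and with either siRNA alone (-0.04 and -0.08). For Rpsa, a small-subunit protein also known as the laminin receptor, the medians were 14.52 in 2i, 14.46 in PD control and 14.46 with YAP/TAZ siRNA, and neither difference from PD control was called (adjusted p = 0.0592 and 0.966).

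Of the large-subunit genes Rpl12, whose protein sits at the base of the lateral stalk, had a different order of the arms. It read 10.76, 10.79 and 10.92 in 2i, 10.24, 10.32 and 10.39 in PD control and 10.09, 10.12 and 10.19 with YAP/TAZ siRNA. No 2 arms overlapped, and the level fell from 2i to PD control to YAP/TAZ siRNA. The difference was 0.49 ± 0.03 between 2i and PD control (adjusted p = 7.93e-12) and -0.20 ± 0.03 between YAP/TAZ siRNA and PD control (adjusted p = 3.90e-06). The second kept its sign in all fits, but was no longer called with centred arrays (-0.06) or with the Actb covariate (-0.11).

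Rpl37, a zinc-finger protein of the large subunit, moved differently. It stood at 11.00, 11.06 and 11.12 in 2i, 10.64, 10.71 and 10.84 in PD control and 11.06, 11.13 and 11.25 with YAP/TAZ siRNA. PD control lay below both other arms without overlap, and those overlapped each other. The differences from PD control were 0.34 ± 0.04 for 2i (adjusted p = 1.67e-07) and 0.42 ± 0.04 for YAP/TAZ siRNA (adjusted p = 2.77e-09), and YAP/TAZ siRNA against 2i gave 0.09 ± 0.04 (adjusted p = 0.0611).

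Rpl41, the smallest ribosomal protein, had a bright chosen probe set at 14.30, 14.48 and 14.54 in 2i, 14.53, 14.55 and 14.57 in PD control and 14.55, 14.59 and 14.64 with YAP/TAZ siRNA. On that probe set it was lower in 2i than in PD control by 0.10 ± 0.03 (adjusted p = 0.00823), but another of its probe sets, at level 9.05, was higher in 2i by 0.31 ± 0.05, and centred arrays turned the first difference to 0.02. Its direction was therefore not settled by these arrays.

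The 6 members named as paralogs of another ribosomal protein gene gave 4 higher and 1 lower in 2i than in PD control (31.3% and 26.7% of all genes), 4 higher and 0 lower with YAP/TAZ siRNA (35.5% and 26.3%) and 1 higher and 2 lower against 2i (25.5% and 22.8%). Rpl39l, the paralog of Rpl39 at the exit of the peptide tunnel, read 12.81, 12.87 and 12.99 in 2i, 12.22, 12.28 and 12.31 in PD control and 12.75, 12.79 and 12.82 with YAP/TAZ siRNA. PD control lay well below both other arms, which touched. It was higher than in PD control by 0.60 ± 0.03 in 2i (adjusted p = 4.04e-14) and by 0.50 ± 0.03 with YAP/TAZ siRNA (adjusted p = 3.49e-13), the smallest p among members in both comparisons. Its partner Rpl39, read by a dim probe set at 7.04 to 7.18 in 2i, 6.95 to 7.12 in PD control and 6.95 to 7.10 with YAP/TAZ siRNA, differed by 0.10 ± 0.03 between 2i and PD control (adjusted p = 0.00776, lost with the Actb covariate, 0.07, and with siRNA 2 alone, 0.03). For YAP/TAZ siRNA the difference of Rpl39 was 0.00 ± 0.03 (adjusted p = 0.982).

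Rpl22l1, the paralog of the RNA-binding protein Rpl22, stood at 13.43, 13.52 and 13.59 in 2i, 13.08, 13.13 and 13.17 in PD control and 13.07, 13.14 and 13.23 with YAP/TAZ siRNA. The 2i arrays were apart from both PD arms, which overlapped each other. It was higher in 2i than in PD control by 0.38 ± 0.03 (adjusted p = 2.91e-10), and its difference between YAP/TAZ siRNA and PD control was 0.00 ± 0.03 (adjusted p = 0.894). Rpl22 itself, at 14.29 to 14.42, 14.32 to 14.35 and 14.36 to 14.47, was called higher with YAP/TAZ siRNA by 0.10 ± 0.02 (adjusted p = 0.000741), a call lost after loess (0.05) and with the Actb covariate (0.10). A probe set of the gene at level 13.50 was called higher by 0.24 ± 0.03, but another at 10.15 was called lower by 0.17 ± 0.03, so the direction of Rpl22 is not settled.

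Rpl7l1, a paralog of Rpl7 that takes part in large-subunit assembly, read 11.20, 11.27 and 11.31 in 2i, 10.93, 10.94 and 11.02 in PD control and 11.20, 11.32 and 11.39 with YAP/TAZ siRNA. As with Rpl39l and Rpl37, PD control was the low arm with no overlap, by 0.30 ± 0.03 from 2i (adjusted p = 1.53e-08) and by 0.35 ± 0.03 from YAP/TAZ siRNA (adjusted p = 5.72e-10). The partner Rpl7 differed by 0.06 ± 0.02 (adjusted p = 0.0142) and 0.02 ± 0.02 (adjusted p = 0.389) in the same comparisons; the first call was lost without the _x_at and _s_at probe sets (0.05), after loess (0.04), with the Actb covariate (0.03) and with either control siRNA alone (0.05 and 0.07).

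Rps4l, named for its likeness to Rps4x and annotated by RefSeq as a transcribed pseudogene, was at 13.17, 13.25 and 13.29 in 2i, 13.20, 13.22 and 13.26 in PD control and 13.36, 13.41 and 13.45 with YAP/TAZ siRNA. Only the YAP/TAZ siRNA arm stood apart, by 0.18 ± 0.02 from PD control (adjusted p = 8.98e-07) and 0.16 ± 0.02 from 2i (adjusted p = 4.41e-06), both kept in every fit. By that annotation Rps4l encodes no ribosomal protein. Whether its probe set also reads RNA of Rps4x or of other copies was not tested. Rps4x, at 14.43 to 14.53 over all arrays, was called in none of the 3 comparisons. Rps27l, a p53 target, was lower in 2i than in PD control by 0.08 ± 0.02 (adjusted p = 0.00579), which turned to 0.04 higher with centred arrays. The muscle paralog Rpl3l, near the floor at 3.99 to 4.72, was higher than in PD control by 0.36 ± 0.07 in 2i and 0.33 ± 0.06 with YAP/TAZ siRNA, calls that were lost with the Actb covariate (0.26 and 0.23).

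**Figure D2:**
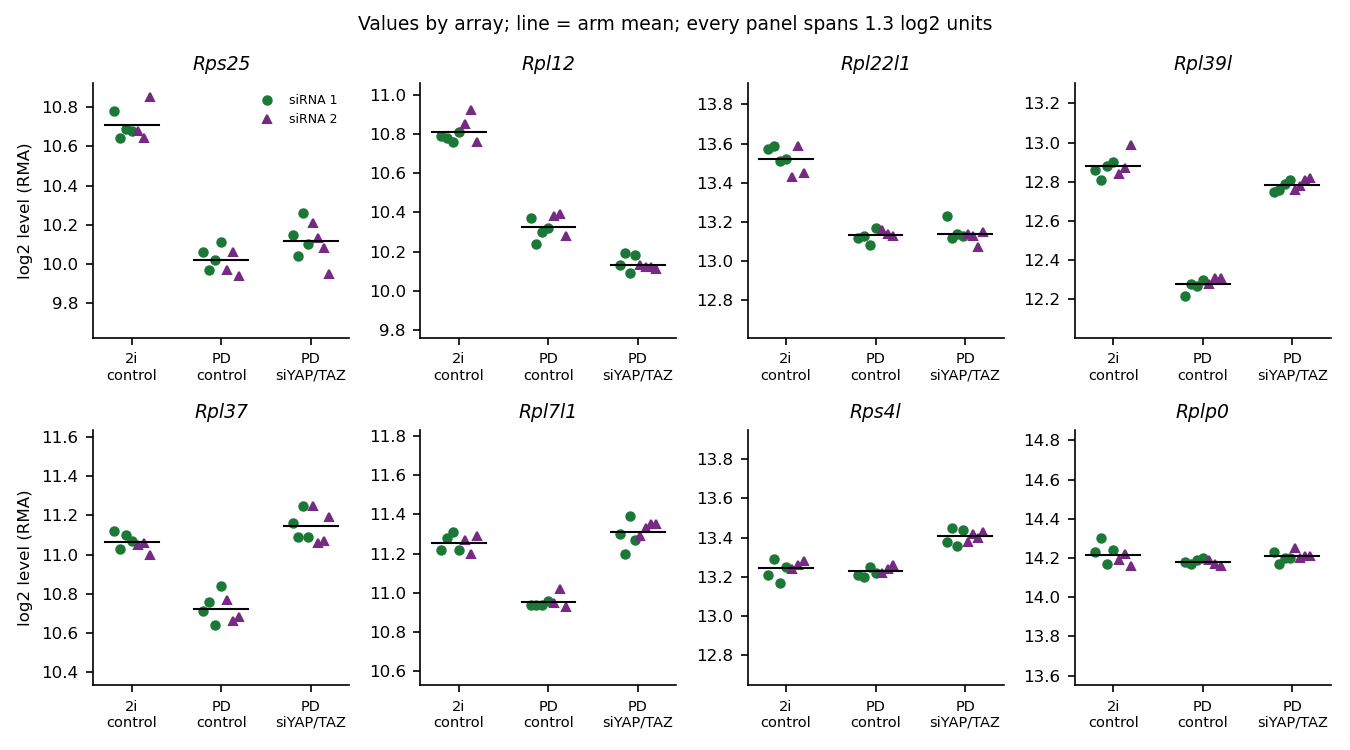
Log2 level on each array for 8 genes in the 3 arms, with circles for siRNA 1, triangles for siRNA 2 and a line at the arm mean. PD control is the low arm for Rpl39l, Rpl37 and Rpl7l1, both PD arms are low for Rps25 and Rpl22l1, the 3 arms of Rpl12 are apart, the siYAP/TAZ arm of Rps4l is high, and the arms of the stalk gene Rplp0 overlap.

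The stalk genes stayed close. Rplp0, the stalk's anchor, read 14.16 to 14.30 in 2i, 14.16 to 14.20 in PD control and 14.17 to 14.25 with YAP/TAZ siRNA, and Rplp2 14.59 to 14.70, 14.64 to 14.66 and 14.61 to 14.65. All arms overlapped, and the differences were between -0.02 and 0.03 with standard errors of 0.02; with centred arrays both became 0.12 to 0.17 in the comparisons with PD control. The 33 members at level 13 or more that are not paralogs lay between -0.10 and 0.10 in the first comparison (8 higher, 1 lower) and between -0.06 and 0.10 in the second (6 higher, 1 lower). Of all 175 genes at that level, 31.4% were higher and 30.9% lower in the first comparison and 37.1% and 22.9% in the second. Among the 33, a difference of over 0.15 occurred in none on the chosen probe sets with the deposited scaling. Other bright probe sets of the same genes could differ more. Those of Rpl13a at levels 13.26 and 13.63 were higher in 2i than in PD control by 0.38 ± 0.03 and 0.23 ± 0.02. The 12 members below level 13 had a median of 0.26 in the first comparison (9 higher, 0 lower) and 0.11 in the second (7 higher, 1 lower). All 18018 genes below 13 gave 31.3% higher and 26.7% lower, and 35.5% and 26.3%. Bright and dim members thus differed in the size of their differences, and how far bright probes lose range near the top of the scale was not tested.

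The 104 probe sets of the members show the same split by level. This fit over all 45037 probe sets that are not controls, and the limits of 5 and 13, were chosen after the data were seen. In 2i against PD control, 21 of 27 member probe sets at 5 to under 13 were called higher and 0 lower, against 28% higher and 21.1% lower among all probe sets and 36.8% and 30% among all at that level. Their median was 0.21, and the counts were 25 and 0 with centred arrays and 18 and 0 after loess. At 13 or more, 26 of 69 were called higher and 5 lower (28.9% and 21.4% of all probe sets at that level), and their median was 0.05. These counts became 64 and 0 with centred arrays and 15 and 5 after loess. YAP/TAZ siRNA in PD gave 17 higher and 3 lower of the 27 with a median of 0.14. All probe sets gave 29.8% and 21%, and all at that level 39.2% and 29.5%. The counts of the 27 were 22 and 1 when centred and 11 and 4 after loess. The 69 bright ones gave 13 higher and 1 lower, where all 401 probe sets at 13 or more gave 112 and 58. These 69 gave 69 and 0 when centred and 4 and 12 after loess, so their direction turned with the scaling. Against 2i YAP/TAZ siRNA gave 2 higher and 13 lower of the 27 with a median of -0.10. All probe sets gave 19.5% and 19.2%, and all at that level 29.4% and 28.2%. The counts of the 27 were 3 and 12 when centred and 2 and 14 after loess. Here the 69 bright ones gave 8 higher and 12 lower, where all 401 probe sets at 13 or more gave 94 and 56. These 69 gave 8 and 10 when centred and 4 and 32 after loess.

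**Figure D3:**
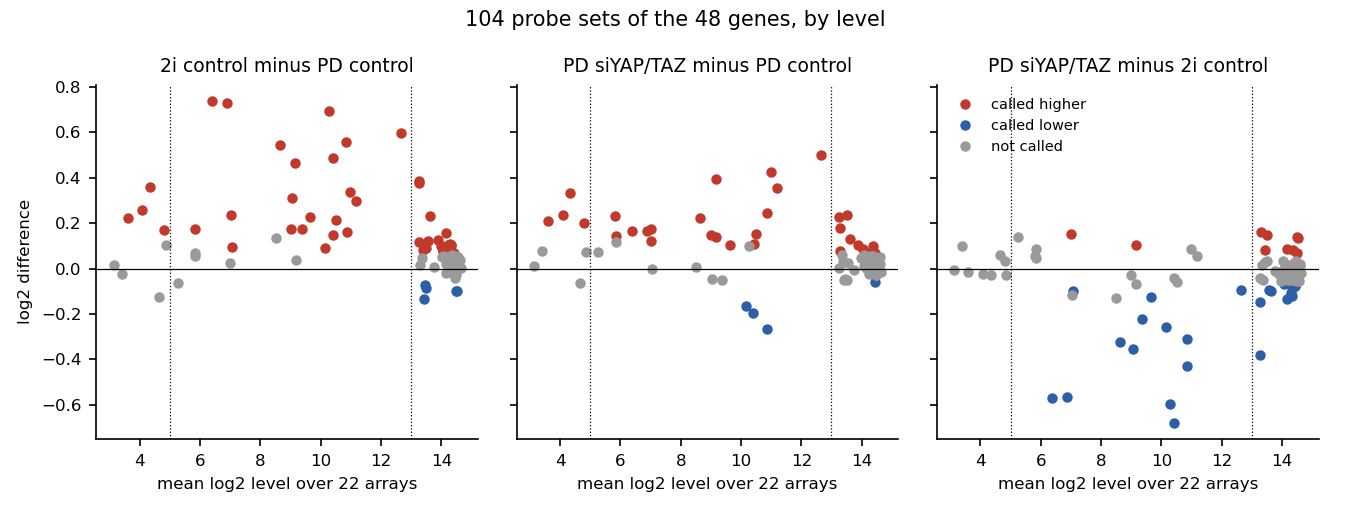
Log2 difference against mean level over 22 arrays for the 104 probe sets of the 48 genes in the 3 comparisons, coloured by limma's call, with dotted lines at levels 5 and 13. Between the lines 21 of 27 probe sets were called higher in 2i than in PD control, while those above 13 crowd around 0, where calls change with the scaling.

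In 11 genes a probe set at 13 or more and 1 at 5 to under 13 could be compared within the gene. The dimmer one gave the higher difference between 2i and PD control in 11 of 11 genes (10 of 11 after loess), with medians of 0.17 for the dimmer and 0.05 for the brighter ones. For YAP/TAZ siRNA in PD it did so in 8 of 11. Of these 11 dimmer probe sets, 7 were called higher and 2 lower (39.2% and 29.5% of all probe sets at 5 to under 13). Against 2i the dimmer one gave the higher difference in 5 of 11, with 1 called higher and 5 lower (29.4% and 28.2%). Rps20, a small-subunit head protein, read 14.52, 14.61 and 14.65 in 2i and 14.52, 14.55 and 14.56 in PD control on its brightest probe set, a difference of 0.05 ± 0.03 that was not called. A dimmer probe set of the same gene read 7.28, 7.32 and 7.35 in 2i and 6.35, 6.60 and 6.76 in PD control without overlap, a difference of 0.73 ± 0.06 (adjusted p = 4.11e-09), and a further one differed by 0.74 ± 0.04 (adjusted p = 3.34e-13). The size of the difference in Rps20 thus depended on the probe set. Rps20, Rps3, Rps9 and Rps24 are named here after their values were seen.

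Rps3, which also lines the mRNA entry channel, differed by 0.08 ± 0.03 on its bright probe set and by 0.56 ± 0.04 (adjusted p = 6.34e-11) on one at 11.04, 11.12 and 11.31 in 2i and 10.50, 10.60 and 10.65 in PD control. With YAP/TAZ siRNA the latter read 10.77 to 10.94, between the other arms and apart from both. Rps9, another small-subunit protein, had a probe set at 8.78 to 8.99 in 2i, 8.32 to 8.45 in PD control and 8.57 to 8.67 with YAP/TAZ siRNA, in 3 separate ranges, with a difference of 0.54 ± 0.03 between 2i and PD control. Another probe set of Rps9, the one plotted, differed by 0.17 ± 0.05. Its arms (8.98 to 9.15, 8.78 to 8.97 and 8.87 to 9.19) were not 3 separate ranges. Rps24 had one at 11.00 to 11.12, 10.87 to 10.93 and 10.58 to 10.68, which put YAP/TAZ siRNA below PD control by 0.27 ± 0.03 (adjusted p = 2.52e-08), while its bright probe set differed by 0.02 ± 0.02 and was not called. Which transcripts each of these probe sets reads was not tested.

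**Figure D4:**
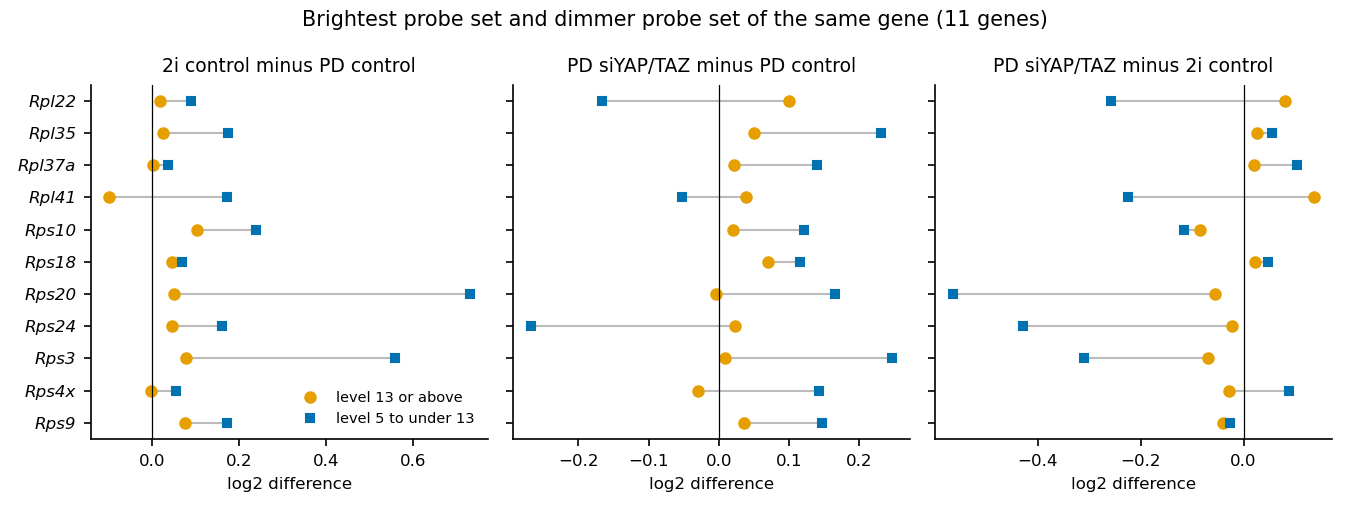
Log2 difference in the 3 comparisons for the brightest probe set (level 13 or more, circles) and the brightest of the dimmer probe sets (level 5 to under 13, squares) of each of 11 genes. The dimmer probe set lies to the right of the brighter one in 11 of 11 genes between 2i and PD control (10 after loess), in 8 of 11 for YAP/TAZ siRNA against PD control and in 5 of 11 against 2i, with Rps20 at 0.73 against 0.05 and Rps3 at 0.56 against 0.08 in the first.

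Genes of the steps around the ribosomal proteins were taken as lists. Of all genes, 31.3% were higher and 26.7% lower in 2i than in PD control. With YAP/TAZ siRNA in PD, 35.5% were higher and 26.3% lower. The shares called in either direction were 76.5% and 82.8% with centred arrays and 56.4% and 58.5% after loess. RNA polymerase I genes, which make the large ribosomal RNA precursor, were called higher in 2i than in PD control in 12 of 15 cases with 1 lower (median 0.24), and higher with YAP/TAZ siRNA in 13 with 0 lower (median 0.28). Taf1d, a subunit of the polymerase's promoter factor SL1, rose by 0.56 ± 0.03 and 0.51 ± 0.03, Rrn3, which recruits the polymerase, by 0.32 ± 0.03 and 0.44 ± 0.03, and Ubtf, which binds ribosomal DNA, by 0.31 ± 0.03 and 0.36 ± 0.02. Those counts were 13 and 1, and 15 and 0, with centred arrays, and 10 and 2, and 13 and 1, after loess. The 15 genes thus had a larger median than the 48 members under each scaling, but levels were not matched. With the deposited scaling the 12 members below level 13 had a median of 0.26 in the first comparison and 0.11 in the second.

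The snoRNA host genes carry the small RNAs that guide rRNA modification in their introns, and many of their spliced RNAs also begin with TOP tracts. In 2i 9 of 9 were higher than in PD control (median 0.48), against 31.3% of all genes. With YAP/TAZ siRNA 8 of 9 were higher (median 0.32), against 35.5%. Against 2i, YAP/TAZ siRNA left 7 lower and 1 higher (Snhg3), where 22.8% and 25.5% of all genes were. Gas5 read 12.71, 12.84 and 12.88 in 2i, 12.02, 12.08 and 12.18 in PD control and 12.41, 12.51 and 12.53 with YAP/TAZ siRNA, in 3 separate ranges, and its difference between 2i and PD control was 0.72 ± 0.03. That order was also seen in 1 dimmer probe set each of Rps3 and Rps9. In the first comparison 9 of 9 were called higher with each scaling, and in the second 9 with centred arrays and 7 after loess.

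Mitochondrial ribosomal protein genes, whose products build the separate ribosome of that organelle, did not follow the cytosolic ones in the counts. Of 76, 31 were higher and 25 lower in 2i than in PD control (median 0.02), against 31.3% and 26.7% of all genes. With YAP/TAZ siRNA 53 were higher and 7 lower (median 0.17), against 35.5% and 26.3% of all genes. The cytosolic members had a median of 0.02 there. The 2 lists were not matched by level, and 36 of the 48 cytosolic members lay at 13 or more. The 12 cytosolic members below 13 gave 9 higher and 0 lower in the first comparison (median 0.26). In the second they gave 7 higher and 1 lower (median 0.11). Mrpl41 was higher with YAP/TAZ siRNA than in PD control by 0.61 ± 0.03 and Mrpl54 by 0.57 ± 0.04, and Mrpl23 was lower by 0.58 ± 0.03. The median of the 76 in the first comparison turned to -0.02 after loess, with 27 higher and 32 lower, and was 0.14 with centred arrays, while the second kept its sign (0.11 and 0.31). Assembly and rRNA processing factors were higher in 23 and lower in 15 of 54 in the first comparison, and higher in 36 and lower in 7 in the second, where Noc3l, an export factor of the pre-60S particle, rose by 0.54 ± 0.03. The first counts became 37 and 7 with centred arrays, 19 and 18 after loess and 21 and 5 with the Actb covariate. The second became 48 and 3, 21 and 10, and 30 and 3.

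Other genes with TOP mRNAs gave counts on both sides. All genes gave 31.3% higher and 26.7% lower in the first comparison and 35.5% and 26.3% in the second. Of 18 translation factors, 5 were higher and 6 lower in 2i than in PD control (median 0.00) and 8 higher and 3 lower with YAP/TAZ siRNA (median 0.03), counts that became 16 and 1, and 17 and 0, with centred arrays, and 3 and 7, and 4 and 8, after loess. In the mTORC1 list 11 of 19 were higher and 2 lower in the first comparison and 13 higher and 5 lower in the second; Ddit4, an mTORC1 inhibitor induced by stress, was lower than in PD control by 1.58 ± 0.03 in 2i and by 0.90 ± 0.03 with YAP/TAZ siRNA. In the Myc network 3 of 10 were higher and 4 lower, and 4 and 4; Myc itself, an activator of ribosome genes, was lower in 2i than in PD control by 0.96 ± 0.05. Of 2 ribosomal protein genes outside the symbol rule, Fau, which encodes a fusion with the small-subunit protein eS30, was higher with YAP/TAZ siRNA by 0.05 ± 0.02 (adjusted p = 0.0367) and the other was called in no comparison.

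**Figure D5:**
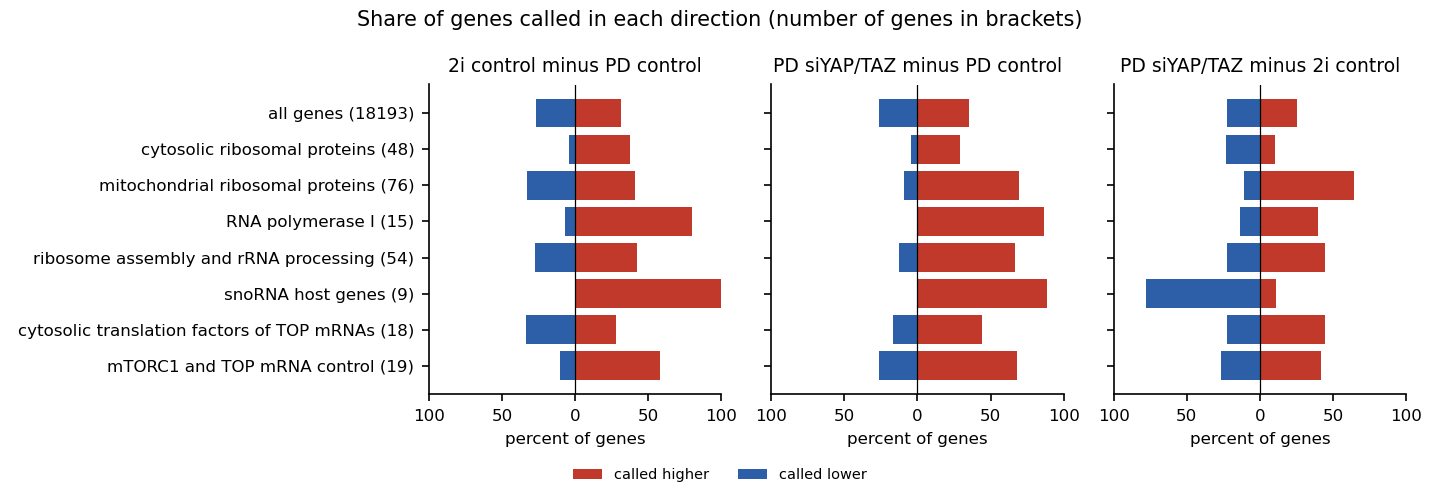
Percent of genes called higher (red, to the right) and lower (blue, to the left) in each comparison for all genes, the 48 cytosolic ribosomal protein genes and 6 lists, with the number of genes in brackets. RNA polymerase I and snoRNA host genes are called higher in 12 of 15 and 9 of 9 cases in 2i (31.3% of all genes). Mitochondrial ribosomal protein genes are called higher in 53 of 76 with YAP/TAZ siRNA (35.5% of all genes). Counts for the translation factors and for the cytosolic ribosomal proteins change direction or size with the scaling of the arrays.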

How the data were processed

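Total RNA of 22 cultures (7 in 2i control, 7 in PD control, 8 with YAP/TAZ siRNA in PD) was labelled by 3′ in vitro transcription and hybridised to Affymetrix arrays, per the labels' protocols. The authors deposited RMA values, per the submitters' processing notes, whose span of 2.09 to 14.91 fits log2 levels; the RMA version is not given in the sources used here, and without detection calls the number of arrays limits the precision. Of 45101 probe sets, 34945 had a single symbol, 932 several, 9160 none in the annotation, and 64 were controls. All 48 members matched RefSeq. Members and lists were chosen with earlier results of these data known; members given by arm are the called ones with the highest and lowest differences, the stalk, Rpsa, Rps6 and the paralog pairs, and list genes are called ones with the largest differences. Rps19, Rps20, Rps3, Rps9, Rps24, Rpl4 and Rpl7a were added after their values were seen.

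With limma 3.58.1 (R 4.3.3) each of the 6 groups received its own mean, an arm was the average of its siRNA groups, and the model had 16 residual degrees of freedom plus 3.1 from the prior; p-values were Benjamini-Hochberg adjusted over 18193 genes and called at 0.05. The fit was tested on simulated data. Array measures were compared by exact permutation, whose smallest p is 0.000583 for 7 against 7 arrays and 0.000311 for 7 against 8. The labels call replicates biological without saying how cultures were separated; no scan date was used here. Alternatives were another probe set rule, scaling, variance model, array weights, the replicate block, the Actb covariate, single siRNAs and each array left out. No 2 arrays were identical.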

Additional observations from a re-analysis of the deposited data

Results flagged for a closer look

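Among 159 sets of 7 or 8 arrays of an arm, 12 had 1 array whose gap to the next was large for the range of the set, where chance gives about 1 in 20. In 2i control, siControl#2 replicate 3 read Rpl27a, a large-subunit gene with a dim probe set, at 9.84, while the other 6 arrays lay between 8.12 and 8.59; the gene was called in no comparison. The same array had the highest Actb 3′ minus 5′ value (1.19, next 0.97), the highest mean over members (12.973, next 12.951) and the lowest Rpl4 (14.34, next 14.42). For Rpl41, siControl#2 replicate 2 of 2i control was low at 14.30 (next 14.44). In PD control the single arrays were those with Rpl13a at 14.53 (next 14.49), Rpl19 at 14.25 (next 14.29), Rpl35 at 14.37 (next 14.40), Rpl7l1 at 11.02 (next 10.96) and the poly-A spike controls at 8.168 (next 8.469). With YAP/TAZ siRNA they were those with Rpl19 at 14.27 (next 14.31) and Rpl22 at 14.36 (next 14.43). Most of these gaps are under 0.1 on the log2 scale.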

How the results depend on the processing

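Leaving out 1 array at a time gave 16 to 20 members higher and 2 to 2 lower in 2i against PD control (median 0.038 to 0.049), 12 to 14 higher and 2 to 3 lower for YAP/TAZ siRNA (0.020 to 0.025) and 5 to 7 higher and 10 to 13 lower against 2i (-0.023 to -0.013). In the first comparison the mean of a gene's probe sets gave 28 higher, 1 lower and a median of 0.066, centred arrays 45, 0 and 0.167, the Actb covariate 9 higher, siRNA 2 alone 10 higher and 0 lower, siRNA 1 alone 0 lower, no _x_at or _s_at probe sets 1 lower, and loess a median of 0.027. For YAP/TAZ siRNA centred arrays gave 46, 0 and 0.159, loess 6, 11 and -0.025, the mean of probe sets a median of 0.041, the Actb covariate 6 higher and 0.034, siRNA 1 alone 8 and 1, siRNA 2 alone 7 and 1, and an adjusted p of 0.01 1 lower. Against 2i the mean of probe sets gave 3 higher, siRNA 1 alone 3 and 7, siRNA 2 alone 2 and 5, loess 21 lower and -0.045, and centred arrays -0.0025. Single siRNAs leave fewer arrays. The other causes were not tested. Of all genes, 58%, 61.8% and 48.3% were called in the 3 comparisons of the main fit. The mean of probe sets gave 58%, 62.1% and 47.1%, and the Actb covariate 42.9%, 45.1% and 48.8%. Centred arrays gave 76.5%, 82.8% and 49.1%, loess 56.4%, 58.5% and 48.5%, and the replicate block 57.9%, 61.9% and 47.9%. For the remaining alternatives the share of all genes is not given. Centring turned Rpl41 (0.0225), Rps27l (0.0367) and Rps4x (0.12) in 2i, and Rpl39 (0.14), Rplp2 (0.12), Rps2 (0.0767), Rps27l (0.085) and Rps4x (0.11) for YAP/TAZ siRNA; the mean of probe sets turned Rpl41 (0.0711) in 2i and Rpl22 (-0.01) and Rpl41 (-0.0759) against 2i, and Rpl41 also turned without _x_at and _s_at probe sets (0.31 and -0.36). Of 1771 values for 20 named members, 1656 kept their state of called higher, called lower or not called. For values not called the sign was not compared and could change. The replicate letters did not pair the samples (correlation of deviations -0.08 to 0.12 over 51 pairs, 2 above 0.1); a replicate block gave 17 higher and 2 lower, 15 and 2, and 5 and 10. Few arrays per siRNA, dim probe sets such as Rps16 and Rpl3l, and bright ones near the top of the scale limit what can be seen.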
